A study of Caenorhabditis elegans with 2 samples.

Results

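Intronic PHA-4 peaks are sites where the transcription factor lay inside a protein-coding gene but away from the annotated starts of protein-coding transcripts. They were chosen from the set of reproducible peaks by the position of the summit, the base of highest signal. A summit was kept if it lay in no promoter window (1000 bp before to 200 bp after the annotated 5' end of any protein-coding transcript), in no coding or untranslated exon part, and inside the span of a protein-coding gene (Ensembl release 115, WBcel235, the assembly also called ce11). The rule kept 310 of 2177 peaks (14.2%), beside 1363 promoter peaks, 483 intergenic peaks, 11 coding peaks and 10 peaks in untranslated regions. The set of 2177 is itself a cut by signal, since it equals the strongest entries of the list called on the pooled replicates. Within it, signal and sequence played no part in the choice by location. Both could therefore be compared between location classes, among peaks above that cut.

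The material was whole Caenorhabditis elegans embryos, the stages mixed and the sexes not separated. The strain was OP37, with the genotype unc-119(ed3) III; wgIs37. Chromatin immunoprecipitation and sequencing (ChIP-seq) was aimed at PHA-4 joined to eGFP, a green fluorescent protein, which the integrated array wgIs37 supplies beside the worm's own gene. The 2 biological replicates, from separate biosamples, form 1 group that shares every allele, and no control libraries were analysed here. The array adds copies of pha-4. The labels give pha-4 as the antibody and no extraction protocol.

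PHA-4 is the worm FoxA factor, a forkhead protein needed to form the pharynx, the feeding organ, and it also acts in the gut and in adult lifespan. FoxA proteins can bind closed chromatin and open it for other factors. Introns of worm genes can carry enhancers, second start sites, and whole small RNA genes such as those for transfer RNAs (tRNAs), small nucleolar RNAs (snoRNAs) and microRNAs.

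Stretches of sequence under 10 of the strongest intronic peaks, with no small RNA gene near them, show what the summits looked like. Each run gives 30 bases, 5′ to 3′ on the strand of the host gene, read from the RefSeq copy of WBcel235. It was taken within 50 bp of the summit where most bases fell in a match, or at the summit where none did. Capitals mark matches, on either strand, to TRTTKRY (a PHA-4 consensus, in which R is a purine, Y a pyrimidine and K either G or T), to GAGAGA, or to CTGCGTC. The stricter FoxA-type site TGTTTRC is a subset of the consensus, and the GA repeat and CTGCGTC can overlap, as they do in pes-4 and pqn-41.
Y111B2A.12, chrIII:12612661-12612690, plus strand: atgtCTGCGTCtcggtgtcatttgtgtcct
pes-4, chrIII:1226470-1226499, minus strand: ctttgcccgtCTGCGTCTCTCcaataccta
pqn-41, chrIII:1926571-1926600, plus strand: TCTCTCTCatcgtgctctCTGCGTCTCTCg
Y41G9A.17, chrX:2997058-2997087, minus strand: TATTTATcgcgaagggaggtgtacctagtc
fkh-7, chrIV:5600498-5600527, plus strand: ACCAACAcgggcTGTTGACAAACAaaagag
mom-1, chrX:6296516-6296545, plus strand: gggacacccaatcgattgcccatttacatt
sea-2, chrII:3958859-3958888, plus strand: ctgtgtgtatgttgcGTAAATAtACAAACA
epg-9, chrIV:2602162-2602191, plus strand: tgtctctttgcctgtCTGCGTCtcctccgt
ldb-1, chrX:11031180-11031209, plus strand: TGTTTGCgcattgacattttctctggagca
lron-13, chrIII:13531015-13531044, plus strand: GTAAATAacaaacGAGAGAcaGAGAGAcgc
CTGCGTC stood in 4 of these 10 runs, the GA repeat in 3 and the PHA-4 consensus in 5. In the longer windows used for counting, 100 bp on each side of the summit, they stood in 7, 7 and 9 of the 10. Over all 310 intronic summits the shares were 21.0%, 53.9% and 67.1% in the same order, so the printed examples are not typical for CTGCGTC. The mom-1 window held none of them, and the fkh-7 run held 3 matches to the consensus.

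A second set, from 8 genes, shows intronic summits that lay just before the start of a nested small RNA gene. Each run follows the strand of the small RNA gene and gives the last 20 bases before the annotated 5′ end in lower case and the opening 10 bases of the RNA in capitals.
R07E5.16, an snRNA gene inside dhc-4, chrIII:10989659-10989688, plus strand: cccctacccgctagtatttcGTTCTTCCGA
ZK994.7, a snoRNA gene inside pxn-1, chrV:8500559-8500588, plus strand: tagcgacgacgctttggcgaGCGCAATGAA
C27H5.9, a snoRNA gene inside pdl-1, chrII:7184069-7184098, minus strand: tctcgcgttcgttccctcgtGTTGTCAGTG
T03F7.8, a snoRNA gene inside cutl-18, chrV:11314238-11314267, plus strand: cacacccgagttcaattcccGCCTGTGATG
WBGene00023042, a tRNA gene inside sulp-3, chrX:8404479-8404508, plus strand: agaccagggggagattgtgtGCTTCCGTGG
sup-6, annotated as an snRNA gene, inside F58G1.7, chrII:12944958-12944987, minus strand: ccctccgcgcgcagcctcatAAACTTACCT
WBGene00023128, a tRNA gene inside T03G6.3, chrX:2613223-2613252, plus strand: tgcgtatgtgaggtacacaaGCATCGGTGG
T24H7.6, a snoRNA gene inside T24H7.2, chrII:6248697-6248726, plus strand: taggttcgacccccgctttaCTGCGTCTCT
The summit lay upstream of the annotated RNA in each, at -21 bp for R07E5.16, -30 bp for ZK994.7, -42 bp for C27H5.9, -43 bp for T03F7.8, -26 bp for WBGene00023042, -44 bp for sup-6, -20 bp for WBGene00023128 and -24 bp for T24H7.6. Short words of the kind found inside tRNA genes were also searched: TGGCNNAGT, after the internal promoter element called box A, and GTTCNANNC, after box B. The box B word begins at base 10 of the T03F7.8 run and at base 4 of the T24H7.6 run, in both before the annotated snoRNA.

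The strongest intronic peak was the second strongest of all thresholded peaks. It lay in intron 4 of Y111B2A.12, on chromosome III from 12612542 to 12612785, 3387 bp inside the gene. Its signal was 152 in replicate 1, where it ranked first, and 151 in replicate 2, where it ranked 4, with 309 in the pooled list, for which the authors called peaks on the 2 replicates joined. All signals are the authors' own peak values in the units of their peak caller and are not scaled between lists. The next 5 by pooled signal were pes-4 (67.5 in replicate 1, 103 in replicate 2), pqn-41 (87.7 and 76.3), Y41G9A.17 (72.0 and 74.0), fkh-7 (64.2 and 80.9) and mom-1 (78.7 and 64.1). The gene pqn-41 encodes a glutamine- and asparagine-rich protein known for its part in a non-apoptotic cell death, fkh-7 encodes another forkhead factor, and mom-1 encodes the Porcupine homologue that acts on Wnt proteins before secretion. Each of these 6 was among the 161 strongest entries of both replicates, where the weakest placing was that of mom-1 in replicate 2.

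Other strong intronic peaks leaned towards replicate 2. The gene lsy-22, which encodes a Groucho-related corepressor, held 3 peaks in 1 intron of 11392 bp, with signals of 32.9, 39.6 and 27.7 in replicate 1 and 89.8, 89.9 and 78.8 in replicate 2. The peak in sea-2, a gene of sex determination, had 34.0 in replicate 1 and 92.6 in replicate 2, and that in herc-1, a ubiquitin ligase homologue, had 44.3 and 75.2. The peak in epg-9, an autophagy gene, was more even, with 55.2 in replicate 1 and 64.7 in replicate 2. In ldb-1, which encodes a partner of LIM-homeodomain factors, the stronger of 2 peaks had 35.9 and 76.2, while the other had 41.3 and 31.4. The remaining ones of the 20 strongest were 2 further peaks of pqn-41 and peaks beside small RNA genes, given with the genes that hold 4 peaks and with that group.

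Intronic peaks were weaker than promoter peaks in the pooled list. The median pooled signal was 49.1 for the 310 intronic peaks (quartiles 41.7 and 68.7, range 35.9 to 309) and 55.9 for promoter peaks (quartiles 44.9 and 76.7). Of the intronic peaks 131 (42.3%, 95% exact binomial interval 36.7 to 48.0) belonged to the stronger 1088 of the thresholded peaks, against 719 of 1363 promoter peaks (52.8%, 50.1 to 55.4). The odds ratio was 0.656, with a two-sided Fisher's exact p of 0.00104. Peaks are not replicates of a condition, so this p and those below describe counts over peaks, and each comparison was repeated in either replicate alone. The 2177 strongest entries of replicate 1 alone held 276 intronic and 1428 promoter peaks, a set other than the thresholded one. Of these, 40.6% and 54.0% lay among its stronger 1088 (Fisher's exact p = 5.65e-05). Those of replicate 2 alone held 352 and 1266, of which 45.5% and 52.8% lay among its stronger 1088 (Fisher's exact p = 0.0159). Of 483 intergenic peaks 48.0% belonged to the stronger 1088 of the thresholded peaks, a share that was not tested.

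**Figure D1:**
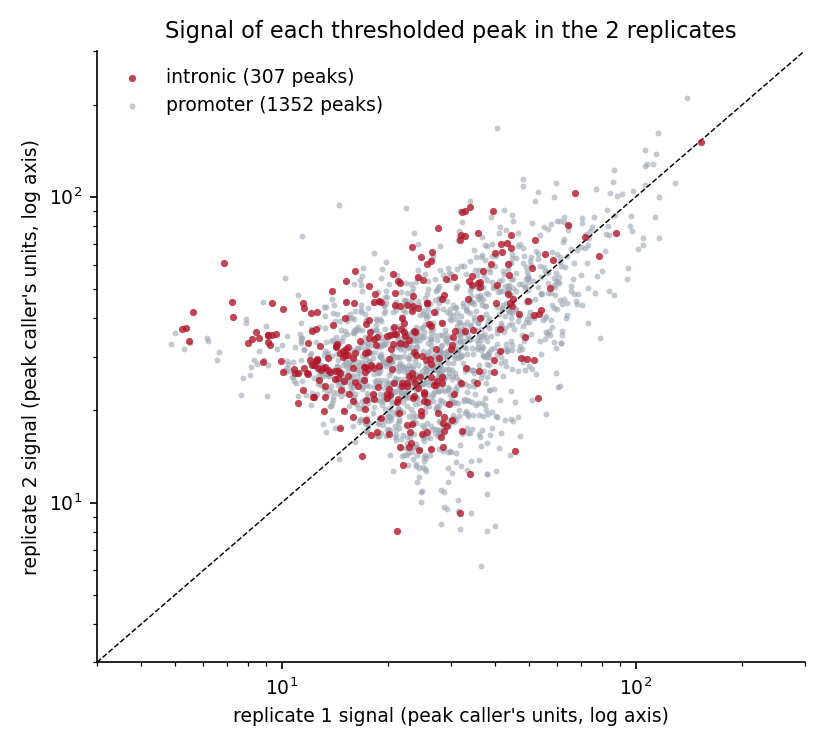
Signal of each thresholded peak in replicate 2 (vertical, log axis) against replicate 1 (horizontal, log axis), in the peak caller's units. Red points are 307 intronic peaks and grey points 1352 promoter peaks with an entry in both replicates, and the dashed line marks equal values. Red points lie mostly above the line, with a median log2 ratio of 0.64, against 0.19 for the grey points.

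The replicates differed more over introns than over promoters. The median signal of intronic peaks was 21.8 in replicate 1 and 31.8 in replicate 2, and that of promoter peaks was 26.8 and 31.3. The median log2 ratio of replicate 2 over replicate 1 was 0.64 for intronic peaks, against 0.19 for promoter peaks and 0.58 for intergenic peaks. Of the intronic peaks 215 (69.4%) met an entry among the leading 2177 of replicate 1, against 85.4% of promoter peaks (Fisher's exact p = 2.93e-10). For replicate 2 the order turned, with 264 intronic peaks (85.2%) against 80.5% of promoter peaks, and did not pass the test (Fisher's exact p = 0.0629). Both replicates together backed 175 intronic peaks (56.5%, 50.7 to 62.0) and 915 promoter peaks (67.1%, 64.6 to 69.6), an odds ratio of 0.635 (Fisher's exact p = 0.000457). Among the stronger 1088 thresholded peaks the difference in shares was -0.401 percentage points (Fisher's exact p = 0.855). Intergenic peaks had 74.5% among the leading entries of replicate 1, 85.3% among those of replicate 2 and 61.1% among those of both. Lower support in replicate 1 than in replicate 2 was thus not particular to introns, and these shares were not tested.

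All but 3 intronic peaks had some entry in both replicate lists. The exceptions had none in replicate 1: smp-1 (a semaphorin, 46.7 in replicate 2), ceh-2 (a homeobox gene of the pharynx, 35.2) and asd-2 (33.3). No intronic peak lacked an entry in replicate 2 (0 of 310, interval up to 1.18%). Across the 307 peaks with both entries Spearman's rho between replicate signals was 0.261, against 0.405 over 1352 promoter peaks and 0.346 over 475 intergenic peaks. These values are descriptions over peaks that were cut by pooled signal and that come from the same 2 libraries.

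The largest rank differences towards replicate 2 were in T22F7.3 (5.23 in replicate 1, 37.0 in replicate 2), F14B8.5 (5.37 and 37.1), shc-2 (5.46 and 33.9), the E-cadherin gene hmr-1 (5.60 and 42.1) and Y67D8A.2 (6.88 and 60.6). Those towards replicate 1 were in F32B4.8 (21.1 and 8.05), nova-1 (31.9 and 9.27), rol-3 (34.0 and 12.4), gei-4 (45.5 and 14.8) and gcy-31 (22.0 and 13.3). At their most extreme the differences spanned ranks 17907 and 761 in T22F7.3 and ranks 1491 and 14939 in F32B4.8. The depth of the replicates is unknown, and its part in these differences was not tested.

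The motif content of intronic summits set them apart from the sequence beside them. The 8 motifs were chosen with earlier results of these data known. Their p-values, here and in the comparisons below, therefore describe these peaks and are no independent support. The consensus TRTTKRY stood within 100 bp of 208 of 310 intronic summits (67.1%, 61.6 to 72.3), against 137 of the windows 500 bp to the side (44.2%, 38.6 to 49.9). The exact McNemar test, adjusted by Benjamini-Hochberg over 8 motifs like every motif p here, gave 8.23e-08, with 116 peaks matched at the summit alone and 45 at the flank alone. The stricter TGTTTRC stood at 61 summits (19.7%) and 18 flanks (5.81%), with an exact adjusted p of 2.38e-06. GAGAGA, a repeat word, differed by the most percentage points of the 8, at 167 summits (53.9%, 48.1 to 59.5) against 39 flanks (12.6%, 9.10 to 16.8), with an exact adjusted p of 2.00e-24. The T-box word TCACAC stood at 15.5% of summits and 7.42% of flanks (exact adjusted p = 0.0065). The GATA word TGATAA was less frequent at summits, at 4.52% against 11.6% (exact adjusted p = 0.0052). The NK-2 word CAAGTG, the E2F word TTCCCGCC and the E-box CANNTG did not pass, at 12.9% against 9.68%, 1.61% against 0.323% and 56.5% against 56.8% (exact adjusted p = 0.271, 0.271 and 1).

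**Figure D2:**
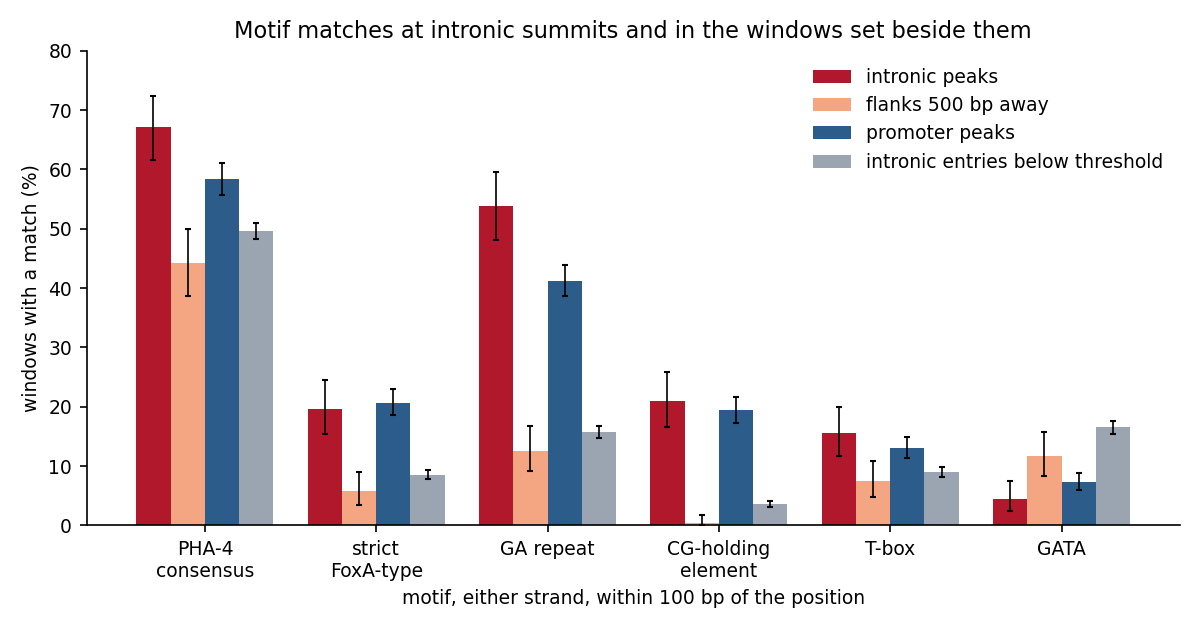
Share of windows with a match to each motif, in percent, with 95% exact binomial intervals, for 310 intronic summits, their flanks, 1363 promoter summits and 4994 intronic entries below the threshold. The motifs are, from left to right, the PHA-4 consensus, the strict FoxA-type site, the GA repeat, the CG-holding element CTGCGTC, the T-box word and the GATA word. The GA repeat stands at 53.9% of intronic summits, 12.6% of flanks, 41.2% of promoter summits and 15.8% of the entries below the threshold.

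Base composition moved with these contrasts. Intronic summit windows had a mean of 47.0% G and C, against 36.5% in their flanks, 43.9% at promoter peaks and 37.4% at intronic entries below the threshold, and its part in the motif shares was not tested. The flank lay in intronic sequence of the same rule for 231 of the 310 peaks.

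Set against promoter peaks, intronic peaks held more GAGAGA and TRTTKRY. GAGAGA stood at 53.9% of intronic and 41.2% of promoter summits (odds ratio 1.66, Fisher's exact adjusted p = 0.000493). TRTTKRY stood at 67.1% of intronic and 58.4% of promoter summits (odds ratio 1.45, Fisher's exact adjusted p = 0.0189). Intergenic peaks, which also lie outside promoter windows, held GAGAGA at 62.1% (57.6 to 66.5) and TRTTKRY at 65.0% (60.6 to 69.3), a difference from intronic peaks that was not tested. The TRTTKRY call was lost in replicate 1 alone (4.91 percentage points, Fisher's exact adjusted p = 0.379) and in replicate 2 alone (6.41 points, adjusted p = 0.0801). Both calls were lost with promoter windows reaching 2000 bp upstream, at 8.23 points for GAGAGA and 8.43 points for TRTTKRY (Fisher's exact adjusted p = 0.0733 for each). The strict site TGTTTRC stood at 19.7% of intronic summits (15.4 to 24.5) and 20.7% of promoter summits (18.6 to 22.9), with a Fisher's exact adjusted p of 0.863.

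Intronic entries of the pooled list below the threshold give the same kind of location at lower signal, with 4994 summits. All 3 leading motifs were more frequent at intronic peaks than at these entries. TRTTKRY stood at 67.1% against 49.6% (Fisher's exact adjusted p = 4.71e-09), TGTTTRC at 19.7% against 8.53% (exact adjusted p = 6.97e-09) and GAGAGA at 53.9% against 15.8% (exact adjusted p = 1.19e-48). TCACAC, at 15.5% against 8.95%, and CAAGTG, at 12.9% against 8.77%, were also more frequent at intronic peaks (Fisher's exact adjusted p = 0.000602 and 0.0244). TTCCCGCC and CANNTG did not pass (Fisher's exact adjusted p = 0.224 and 0.638). TGATAA went the other way, at 4.52% against 16.5% (exact adjusted p = 1.27e-09).

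TRTTKRY and GAGAGA did not stand together more often than their single shares give. Both were found at 104 intronic summits (33.5%, where the product of the single shares is 36.1%), TRTTKRY alone at 104, GAGAGA alone at 63 and neither at 39 (12.6%). In promoter windows both stood at 23.4% (product 24.1%) and neither at 23.8%, and in the flanks of intronic peaks both stood at 7.10% and neither at 50.3%. Signal differed little between these classes of intronic peaks, with medians of 50.7 for both, 48.5 for TRTTKRY alone, 48.8 for GAGAGA alone and 48.4 for neither in the pooled list. The nearest TRTTKRY match lay a median of 23 bp from the intronic summit, against 31 bp at promoter peaks and 35 bp at intronic entries below the threshold. For GAGAGA the medians were 31.5 bp, 32.5 bp and 44.5 bp in the same order. For TGTTTRC they were 23 bp, 21 bp and 34.5 bp, and for CTGCGTC 29 bp, 20 bp and 42 bp. These last words thus lay no nearer to intronic than to promoter summits, and no distance was tested.

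The word CTGCGTC, known from earlier results on all peaks and so given without a test, stood at 65 of 310 intronic summits (21.0%, 16.6 to 25.9) and at 1 of their flanks (0.323%). Promoter peaks held it at 19.4%, intergenic peaks at 25.5% and intronic entries below the threshold at 3.62%. The printed runs of Y111B2A.12, pes-4, pqn-41 and epg-9 carry it, as does that of T24H7.6, where it opens the annotated snoRNA.

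Intronic peaks lay in long introns. The median length of the intron around the summit, taken as the shortest over transcripts, was 2728 bp (quartiles 972 and 6134, 309 peaks). It was 944 bp for intronic entries below the threshold and 916 bp for all intronic bases that meet the rule. Introns over 5000 bp held 90 intronic peaks (29.0%), against 17.6% of the entries below the threshold and 12.4% of those bases. The fkh-7 peak printed above stands in an intron of 16465 bp, that of daf-5, a Sno/Ski-family gene, in one of 14446 bp and that of the Nemo-like kinase gene lit-1 in one of 12325 bp.

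**Figure D3:**
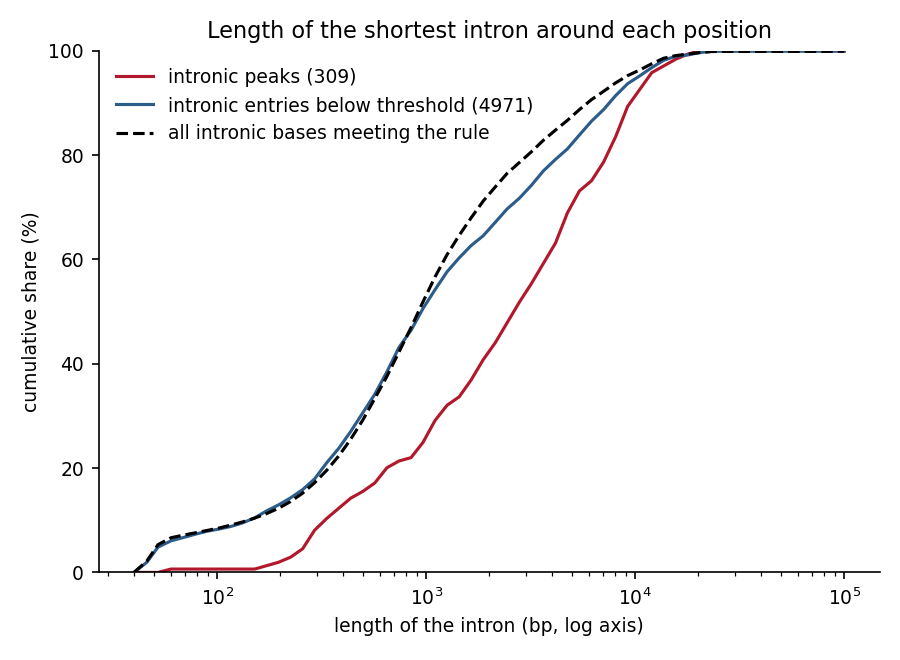
Cumulative share, in percent, of intronic peaks (red), intronic entries below the threshold (blue) and all intronic bases meeting the rule (dashed) by the length of the shortest intron around them, in bp on a log axis. The red curve runs to the right of both others, with medians of 2728 bp, 944 bp and 916 bp.

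First introns held 136 of the 310 intronic peaks (43.9%, 38.3 to 49.6), against 1719 of 4994 entries below the threshold (34.4%, 33.1 to 35.8). The odds ratio was 1.49, with a Fisher's exact p of 0.000897, and 28.4% of the bases that meet the rule lay in first introns. An intron counted as first if it was first in any transcript. When introns were numbered in the longest transcript alone the difference was 2.74 percentage points and the call was lost (Fisher's exact p = 0.279). Intron 2 held 46 peaks, later introns 127, and 1 summit lay in no intron of a coding transcript.

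Most intronic peaks lay within 2000 bp of an annotated start of the host gene. Such distances were not taken for the eligible bases or the entries below the threshold, so the values show no preference. The median distance to the nearest 5' end of the host gene was 1764 bp, 173 peaks lay within 2000 bp and 32 lay over 5000 bp away. Because many hosts have several starts, 84 peaks lay upstream of the nearest one and 226 downstream. The promoter windows that bound the class can belong to the host or to a neighbouring gene. Just past a downstream edge lay the intronic peaks of zfp-1 (51 bp past the window of F54F2.6), unc-116 (96 bp) and dve-1 (99 bp), with pooled signals of 79.2, 77.7 and 44.9. Just past an upstream edge lay those in Y43F8C.7 (1 bp past the window of mrps-28), lin-42 (25 bp) and C01C4.3 (27 bp), with 121, 50.3 and 44.7. Gene-body summits just inside the window, and so counted as promoter peaks, were those of erp-44.1, Y32H12A.8 and grl-26 at the downstream edge (44.6, 43.0 and 36.9) and of xpo-1, pqn-87 and ell-1 at the upstream edge (45.9, 48.9 and 57.4), the window at ell-1 being that of Y24D9A.7.

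The intronic peaks fell in 255 protein-coding genes, 1.41% of the 18114 with intronic sequence that meets the rule. When each peak counted for 1 host there were 253, of which 212 held 1 peak, 29 held 2, 8 held 3 and 4 held 4. Host genes were long, with a median span of 9859 bp against 2219 bp for all genes with such sequence. Among the 3697 genes with 2000 or more eligible intronic bases, 212 (5.73%) held an intronic peak. A peak in a promoter window as well was found for 56 of the 253 hosts (22.1%), while 9.16% of all 19973 protein-coding genes had one. These sets are unlike, since hosts are longer and many have several starts, and so several promoter windows. No share was taken for genes of like length or number of starts, so the values show no link between intronic and promoter peaks.

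The genes with 4 intronic peaks were pqn-41, fkh-7, Y67D8A.2 and lin-42. In pqn-41 all 4 stood in the same intron of 7776 bp, between 15416 and 20654 bp from the outermost start, with pooled signals of 89.8, 108, 118 and 165 in that order along the gene. Replicate 1 gave them 53.3, 50.9, 51.9 and 87.7, and replicate 2 gave 41.2, 58.4, 72.4 and 76.3. In fkh-7 a peak 9419 bp from the outermost start had 64.9, one at 15830 bp had 144, and a pair at 18859 and 19964 bp had 94.3 and 97.8. In lin-42, the Period homologue that times larval stages, the strongest of the 4 had 83.9 (40.1 in replicate 1, 44.8 in replicate 2) and the others 50.3, 41.8 and 37.9. In Y67D8A.2 the peaks had 86.2, 67.6, 66.4 and 46.4.

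**Figure D4:**
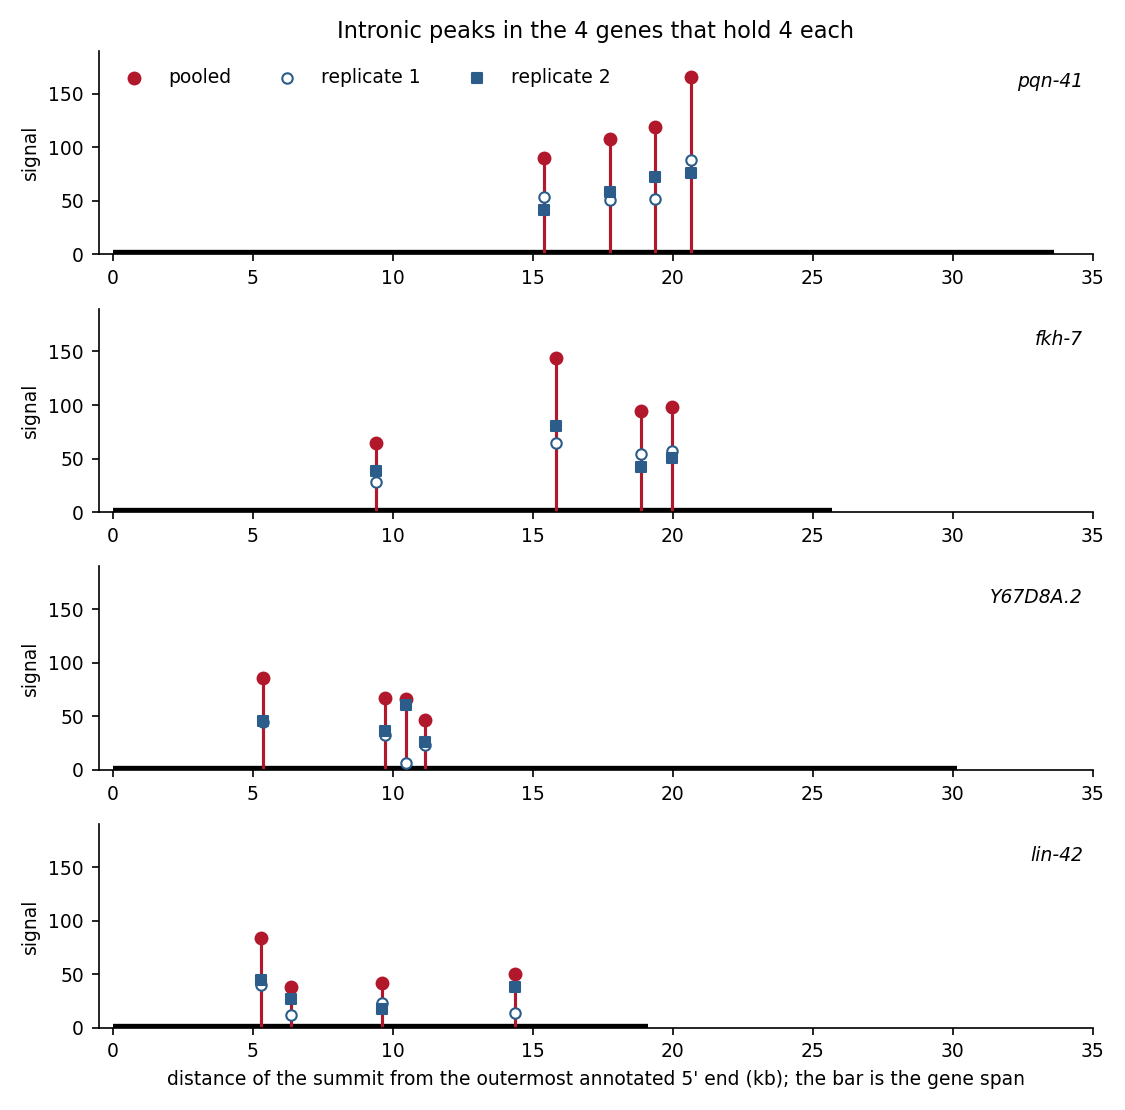
Signal of each intronic peak (filled red circles, pooled list; open circles, replicate 1; squares, replicate 2) against the distance of its summit from the outermost annotated 5' end of the gene, in kb, for the 4 genes that hold 4. The black bar is the gene span. The pqn-41 peaks rise along the gene to 165, and 1 peak of Y67D8A.2 has 60.6 in replicate 2 beside 6.88 in replicate 1.

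The genes with 3 intronic peaks were lsy-22, described above, lron-13, zfp-1, let-526, vhp-1, lin-14, mig-10 and ppfr-1. In zfp-1, the AF10 homologue, the pooled signals were 99.9, 102 and 79.2, and in let-526, which encodes a SWI/SNF subunit, they were 52.3, 85.3 and 39.8. In lin-14, whose product sets the timing of early larval fates, they were 55.8, 42.1 and 49.3. In the phosphatase gene vhp-1 they were 47.0, 43.1 and 66.5, in the leucine-rich repeat gene lron-13 51.0, 46.7 and 106, and in the adaptor gene mig-10, known for cell migration, 44.8, 44.3 and 41.3. Of the peaks of ppfr-1 (41.5, 36.1 and 39.8) the first 2 overlap each other and share their replicate entries of 9.12 and 35.2.

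Genes that build the pharynx were among the hosts. Of 21 pharynx regulators with intronic sequence 6 held an intronic peak (28.6%), beside 1.41% of all such genes and 5.73% of those with long intronic sequence. The first intron of pha-4 itself held one at 933 bp, with 41.8 in replicate 1, 66.1 in replicate 2 and 99.2 pooled, and a weaker one stood 5553 bp in (39.4). Reads of the array's pha-4 copies and of the endogenous gene were not separated here. The others were skn-1, which sets the fate of the blastomere that gives rise to part of the pharynx (36.0 in replicate 1, 26.8 in replicate 2), the steroid receptor gene daf-12 (29.2 and 17.8), the Eyes absent homologue eya-1 (9.40 and 35.4), peb-1, a FLYWCH zinc-finger gene (32.3 and 17.1), and ceh-2, absent from replicate 1 as given above. In the list of pharyngeal muscle and pumping genes 0 of 22 held one, a count that background shares of 1.41% to 5.73% do not set apart.

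Other regulators held intronic peaks in small numbers. Of 15 forkhead genes 3 did (20%): fkh-7, pha-4 and fkh-9 (30.8 in replicate 1, 36.2 in replicate 2). Of 21 heterochronic genes, which time development, 4 did (19.0%): the casein kinase gene kin-20 (34.3 and 55.2), lin-42, lin-14 and daf-12. Both shares lay above the 1.41% of all genes and the 5.73% of genes with long intronic sequence. They rest on 3 and 4 genes and were not tested. Nuclear receptor genes gave 7 of 269 (2.60%), led by nhr-3 (39.0 and 60.1) and nhr-46 (46.8 and 41.3), followed by nhr-17, nhr-21 and nhr-19. Homeobox genes gave 3 of 95 (3.16%, dve-1, ceh-2 and zfh-2), bHLH and T-box genes 3 of 59 (5.08%, ahr-1, hlh-30 and cky-1), and chromatin regulators 3 of 95 (3.16%, egl-27, lsy-2 and set-18). The shares of these last 4 lists lay between the 1.41% of all genes and the 5.73% of genes with long intronic sequence.

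Among signalling and adhesion genes, most named hosts held 1 peak, while daf-5, lit-1 and hmr-1 held 2 and mig-10 held 3, and the replicate values given are those of the strongest. The signalling list gave 5 of 88 (5.68%): daf-5 (24.3 in replicate 1, 54.7 in replicate 2), the Schnurri homologue sma-9 (39.7 and 26.7), the Frizzled gene lin-17 (7.27 and 40.5), lit-1 (14.6 and 23.3) and the ERK gene mpk-1 (13.2 and 24.0). Insulin, TOR and longevity genes gave 4 of 69 (5.80%), namely pha-4, skn-1, the insulin receptor gene daf-2 (28.8 and 19.0) and the TFEB homologue hlh-30 (15.3 and 30.4). Cell adhesion and axon guidance genes gave 5 of 52 (9.62%), namely hmr-1 (20.8 and 37.4), the receptor phosphatase gene ptp-3 (30.7 and 22.6), mig-10, smp-1 and the cadherin gene cdh-4. Ion channels and ligand-gated receptors gave 5 of 237 (2.11%), led by the potassium channel genes twk-5 (21.6 and 44.0) and unc-58 (10.1 and 42.8), then the peak shared by sym-2 and twk-4, and those of twk-48 and lgc-4. Beside the shares of these lists stand 1.41% of all genes with eligible sequence and 5.73% of those with 2000 or more such bases. No difference was tested.

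Lists of differentiated tissues held few hosts. The highest share among them, that of the epidermis, rests on 3 genes, of which hmr-1 is also in the adhesion list, and was not tested. Epidermis gave 3 of 26 (11.5%, beside 1.41% of all genes with eligible sequence and 5.73% of those with 2000 or more such bases), the junction genes ajm-1 (23.3 in replicate 1, 68.5 in replicate 2), hmr-1 and dlg-1 (25.2 and 22.9). Body wall muscle and attachment gave 2 of 38 (5.26%, vab-10 and unc-52), neurons and synapse 2 of 56 (3.57%, the kinesin gene unc-116 and the protein kinase A gene kin-1), and the intestine 1 of 23 (4.35%, pgp-1). Cuticle collagens gave 1 of 161 (col-85) and ribosomal proteins 0 of 43. Ribosomal protein and collagen genes have little eligible sequence, with medians of 52 and 56 bases, against 2839 bases for pharynx regulators and 3855.5 bases for adhesion genes, so the counts of these lists cannot be set side by side as preferences.

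Nested non-coding genes stood near many intronic peaks. The 5' end of a non-coding gene lay within 500 bp of 120 of 310 intronic summits (38.7%, 33.3 to 44.4), against 611 of 4994 entries below the threshold (12.2%, 11.3 to 13.2). The odds ratio was 4.53, with a Fisher's exact p of 7.75e-30, and 6.41% of the eligible bases lay that close. The nearest of these genes was annotated as ncRNA for 61 peaks, snoRNA for 27, tRNA for 27, miRNA for 4 and snRNA for 1. The difference kept its direction and its call in either replicate alone.

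Small RNA genes, the tRNA, snoRNA, snRNA and miRNA genes taken alone, lay within 500 bp of 65 intronic peaks (21.0%), against 2.88% of the entries below the threshold and 1.06% of the eligible bases. By the nearest of them 29 peaks stood at tRNA genes, 27 at snoRNA genes, 7 at miRNA genes and 2 at snRNA genes. Read from the genes' side, 31 of 238 tRNA genes with their 5' end in eligible intronic sequence (13.0%) and 27 of 115 snoRNA genes (23.5%) had an intronic peak that near. Their introns were short, with a median of 431 bp, against 3555 bp for the other 245 intronic peaks. Of the 48 intronic peaks in introns under 500 bp, 35 belonged to this group.

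Summits lay just before snoRNA genes. The median offset was -45 bp (quartiles -59.5 and -24.5), and 23 of 27 lay within 100 bp upstream of the annotated 5' end, against 11 of 32 snoRNA-associated entries below the threshold. At tRNA genes the median offset was -21 bp (quartiles -27 and 13), with 17 of 29 within 100 bp upstream. The tRNA-associated entries below the threshold had a median of 15.5 bp, with 32 of 86 that near upstream. At miRNA genes, whose 5' end is that of the annotated hairpin, the median was -261 bp and 0 of 7 lay within 100 bp upstream. Below the threshold 5 of 16 miRNA-associated entries did. The small RNA gene had the same strand as its host for 18 of 27 snoRNA peaks and 11 of 29 tRNA peaks. The share over all nested snoRNA and tRNA genes was not taken, so these counts show no trait of the bound ones.

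**Figure D5:**
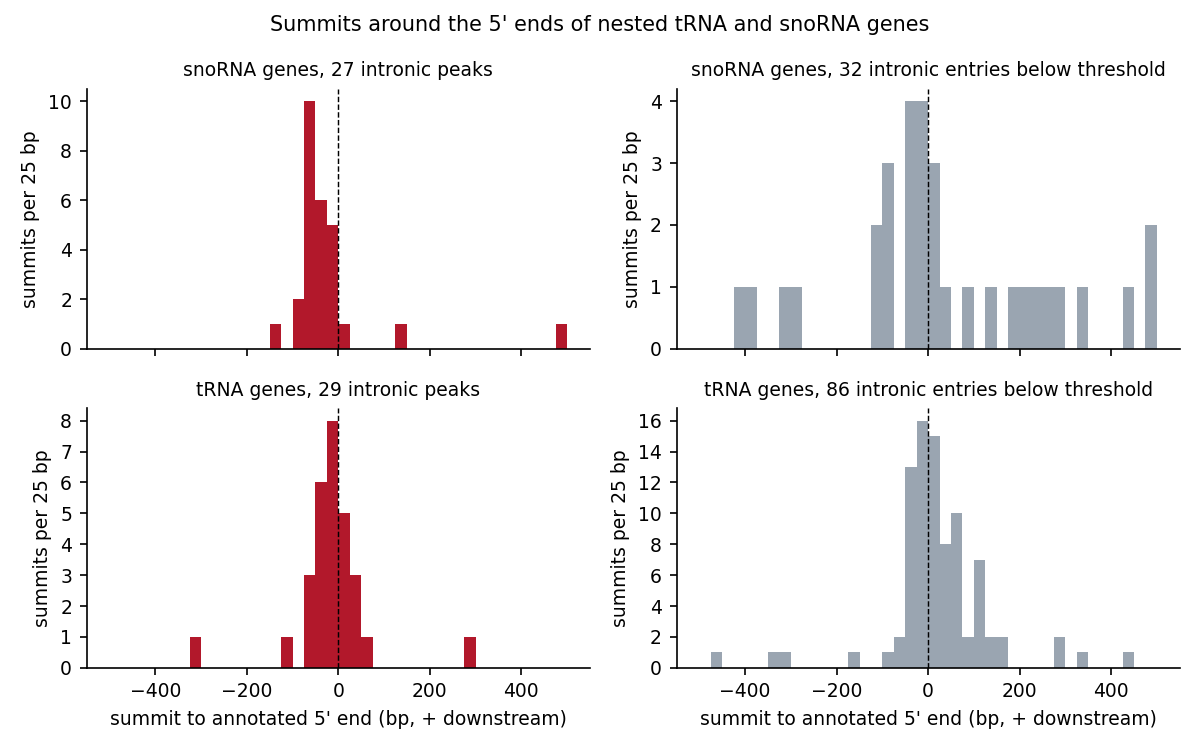
Number of summits per 25 bp by distance from the annotated 5' end of the nearest small RNA gene, negative upstream, for snoRNA genes (top) and tRNA genes (bottom). Intronic peaks are on the left and intronic entries below the threshold on the right, each panel with its own vertical scale. The snoRNA summits gather before the 5' end, with a median of -45 bp for the 27 intronic peaks and -5.5 bp for the 32 entries below the threshold.

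The strongest of the snoRNA group lay in Y43F8C.7 beside Y43F8C.22 (58.3 in replicate 1, 62.0 in replicate 2), in madf-11 beside C05D2.15 (32.2 and 89.2) and in pxn-1, a peroxidasin gene, beside ZK994.7 (33.0 and 74.1). Behind them came frm-7 with C51F7.4 (26.5 and 65.8), pdl-1 with C27H5.9 (35.9 and 52.3), haf-9 with ZK484.9 (24.7 and 63.6), mix-1 with M106.6 (34.5 and 51.4) and cutl-18 with T03F7.8 (29.2 and 54.0). In each of these 8 the value in replicate 2 was the higher one, as it was for 237 of all 307 intronic peaks with both entries (77.2%), in signals not scaled between lists. The snRNA gene R07E5.16 in the dynein heavy chain gene dhc-4 had 43.2 and 70.4. The tRNA genes WBGene00023055 in spe-15, a myosin gene of sperm, and WBGene00022955 in cye-1, which encodes cyclin E, had 41.6 and 70.2, and 44.4 and 67.9.

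The 7 peaks at microRNA genes had a median pooled signal of 48.3, beside 61.1 at the 27 of snoRNA genes and 48.1 at the 29 of tRNA genes. The gene mir-54 in F09A5.3 had 36.3 in replicate 1 and 50.6 in replicate 2, and mir-56 in the same intron had 16.6 and 33.6. On either side of mir-58a in Y67D8A.2 lay peaks with 6.88 and 60.6 upstream (-329 bp) and 23.3 and 26.5 downstream (355 bp). The others were mir-229 in gcn-1 (12.6 and 42.0), mir-87 in kup-1 (18.2 and 34.2) and mir-90 in K01F9.2 (8.61 and 34.4). All 7 were higher in replicate 2, beside the 77.2% of all intronic peaks.

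The sequence at small RNA genes differed from that at the other intronic summits. TRTTKRY stood at 32 of 65 (49.2%, 36.6 to 61.9), against 176 of 245 elsewhere in introns (71.8%, 65.8 to 77.4), and GAGAGA at 25 (38.5%, 26.7 to 51.4) against 142 (58.0%, 51.5 to 64.2). CTGCGTC stood at 9.23% (3.46 to 19.0) against 24.1% (18.9 to 29.9). TGTTTRC was close, at 12 of 65 (18.5%, 9.92 to 30.0) against 49 of 245 (interval 15.2 to 25.6%). The group was chosen after its values were seen, so these shares carry no test. Mean G and C was 50.4% against 46.2%, and its part in the shares was not tested.

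The word GTTCNANNC, after box B, stood in 24 of 29 windows at tRNA genes (82.8%, 64.2 to 94.2), where the gene itself carries it, and in 15 of 27 windows at snoRNA genes (55.6%, 35.3 to 74.5). Elsewhere in introns it stood at 14 of 245 peaks (5.71%, 3.16 to 9.40). Beside this stood 6.46% of promoter peaks, 10.6% of intergenic peaks and 8.59% of intronic entries below the threshold. TGGCNNAGT, after box A, stood in 4 of 29 windows at tRNA genes and 9 of 27 at snoRNA genes (33.3%, 16.5 to 54.0), against 6 of 245 elsewhere (2.45%). The 2 words stood together in 7 of 27 snoRNA windows, in 2 of 245 windows elsewhere and in 8 of 1363 promoter windows. These matches are descriptions of letters and carry no test.

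Repeated sequence was rare under intronic peaks. Only the peak in klp-6 had a window whose 25-base words occurred a median of 2 or more times in the genome (1 of 310), against 43 of 4994 entries below the threshold (0.861%) and 0 of 1363 promoter peaks. None of the 65 peaks at small RNA genes did (interval up to 5.52%).

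Intronic peaks were spread over all 6 chromosomes. Their shares were closest to those of the eligible sequence on I and II, above it on III and X and below it on IV and V, and were not tested. The X chromosome held 72 (23.2%, with 16.8% of the eligible bases), III 60 (19.4%, with 16.4%), I 57 (18.4%, with 18.3%), II 48 (15.5%, with 13.9%), IV 39 (12.6%, with 16.8%) and V 34 (11.0%, with 17.7%). On the X chromosome promoter peaks came to 17.5% and intergenic peaks to 29.4%, and on V to 15.3% and 9.52%.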

How the data were processed

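Peak lists from 2 ChIP-seq libraries of 1 group were used. Signal values are the authors' own, taken as deposited from narrowPeak lists: 1 list per replicate, 1 called on both replicates pooled, and the thresholded set derived from them. Per the labels the lists exist on ce10 and ce11, and the 4 lists on ce11 were used. For the aligner, the peak caller and the irreproducibility threshold, nothing is given in the sources used here. The deposited signal is not scaled between replicates. Each replicate list ends at 30000 entries and holds weak entries, the pooled list holds 21931, and the thresholded set equals its 2177 strongest entries by signal. Read totals are unknown, so intervals (95%, exact Clopper-Pearson) cover counting of peaks only. Control libraries were not analysed here.

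A peak's replicate signal is that of the strongest entry it overlaps by 1 bp. Motifs were searched on both strands within 100 bp of summits, with flanks centred 500 bp towards lower coordinates, by exact McNemar and two-sided Fisher's exact tests at 0.05, adjusted by Benjamini-Hochberg over 8 motifs. Non-coding 5' ends (all biotypes but piRNA and pseudogene) counted within 500 bp. "Replicate alone" takes each replicate's 2177 strongest entries. No depth correction or repeated fit was made, and the location rule and tests were tested on simulated data. The genome was the RefSeq copy of WBcel235. Tools were Python 3.11.15, numpy 2.4.6, pandas 2.3.3, scipy 1.17.1 and matplotlib 3.10.9.

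Members, motifs and the 18 gene lists were chosen with earlier results of these data known. Named were the 20 strongest intronic peaks, hosts with 3 or more, up to 5 hosts per list, the 5 largest rank differences each way, 3 summits on each side of each promoter window edge, and the 10 strongest at nested non-coding genes. The miRNA peaks, the remaining small RNA peaks shown, the 3 peaks without a replicate 1 entry, klp-6 and the second peak of pha-4 and ldb-1 were named after their values were seen. The list entries elt-5 and nca-1 were not found in the annotation. Alternatives were other promoter windows (500 and 2000 bp), the stronger 1088 peaks, each replicate alone, windows of 50 bp, the opposite flank, interval midpoints, other overlap rules (reciprocal 50%, summits within 50 bp), non-coding distances of 200 and 1000 bp, other intron choices, and leaving out peaks within 25 kb of either pha-4 or unc-119.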

Additional observations from a re-analysis of the deposited data

How the results depend on the processing

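There were 16 results with 130 recomputed values, of which 113 kept their direction and call, or stayed within 1.5 times a count. No paired analysis was possible because all samples form 1 group. The first-intron difference fell short of the threshold with introns numbered in the longest transcript (2.74 percentage points). The median intron length (2724.5 bp with the summit outside coding-transcript introns counted as 0) came to 2862 bp with the longest intron, 2655 bp in the stronger 1088 peaks, 2631 bp and 2459 bp with promoter windows of 500 and 2000 bp, and 2728 to 2801.5 bp in either replicate alone. Without peaks near small RNA genes, an alternative chosen after seeing the data, it was 3551 bp. In the stronger 1088 peaks 131 intronic peaks in 115 host genes remained, and the both-replicate difference from promoter peaks was -0.401 percentage points. That difference was also taken for each replicate by itself, as was the difference in strength, both chosen after seeing the data: the first ran from -16.0 points with replicate 1 to 4.68 points with replicate 2, which turned it round, and the second from -13.4 to -7.39 points. Against promoter peaks, TRTTKRY ran from 4.91 to 6.41 points in either replicate alone and was 8.43 points with a 2000 bp window, neither passing; GAGAGA was 8.23 points with the 2000 bp window, not passing, and 8.36 to 12.9 points in either replicate alone. TGTTTRC, which never passed against promoter peaks, turned to 0.0920 points in replicate 2 alone (-0.871 in replicate 1 alone) and 0.473 points with the 2000 bp window. Except where a value or the alternative's own construction shows it, the cause was not tested. Each of the 20 strongest peaks lay among the 2177 strongest entries of either replicate. With unknown depth, a missing replicate 1 entry cannot be told from a weak one.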
